A study of Homo sapiens with 12 samples.

Results

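Dense groups are chains of at least 8 neighbouring GATA1 and TAL1 intervals in control K562 cells. K562 is a human erythroleukemia line, grown here in RPMI1640 with 10% FBS. The members were chosen from the positions of the intervals themselves. The distinct rows of the deposited GATA1 and TAL1 lists were pooled, those on the mitochondrial sequence were left out, and neighbours no more than 12.5 kb apart on a chromosome were put into 1 group. Every interval in a group of 8 or more is a member. This gave 1106 members in 108 groups, of 24654 distinct nuclear intervals in all, or 4.49%. That the groups hold many intervals is therefore how they were picked and is no result.

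Chromatin immunoprecipitation and sequencing (ChIP-seq) was done after nuclei were cut with micrococcal nuclease and fragments of about 1 or 2 nucleosomes were kept. Both lists used here come from control cells, with 1 library for the GATA1 antibody (sc-1233) and 1 for the TAL1 antibody (sc-12984). What the control cells received is not given in the labels. The other 10 of 12 libraries, with lentiviral short hairpin RNAs against GATA1 or TAL1, other antibodies or input, were not analysed here, and no effect of a knockdown was measured. An interval in both lists has identical boundaries in each, so it is 1 interval with 2 labels. Intervals fall into 3 classes: in both lists, in the GATA1 list only and in the TAL1 list only. The lists give no height or score, the depth of the libraries is unknown, and 1 library per antibody leaves no replicate error. The exact (Clopper-Pearson) 95% intervals given below cover counting over intervals only. Neighbouring intervals are not independent, so the true uncertainty is wider, and no test was run.

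GATA1 is a zinc finger factor that binds GATA sites and drives erythroid and megakaryocytic genes. TAL1, of the basic helix-loop-helix family, binds E-boxes together with an E protein partner and is held near GATA1 by the bridging proteins LMO2 and LDB1 on erythroid enhancers. Enhancers of strongly expressed lineage genes often consist of several binding sites spread over a long stretch of DNA. The joining distance used here is one commonly used to stitch such sites into a single region.

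The dense groups took up nearly the same percentage of each list. They took up 1065 GATA1 intervals (4.68% of that list) and 415 TAL1 intervals (4.66% of the nuclear intervals of that list). Of the 1106 members, 374 were in both lists, which is 33.8% (95% interval 31.0 to 36.7%) against 28.5% of all nuclear intervals. Another 691 (62.5%, 59.5 to 65.3%) were in the GATA1 list only, against 63.8% of all. The remaining 41 (3.71%, 2.67 to 4.996%) were in the TAL1 list only, against 7.65% of all. GATA1-only intervals were thus as frequent as elsewhere, shared intervals were somewhat more frequent, and TAL1-only intervals were less frequent. At least 1 shared interval was present in 103 of the 108 groups (95.4%). With 8 or more intervals per group and 28.5% of all intervals shared, such a count follows largely from the size of the groups.

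The classes were also counted by the size of the group an interval lay in. The share in both lists was 24.7% (23.8 to 25.6%) of 9117 lone intervals, 28.2% (27.03 to 29.3%) in groups of 2, 32.2% (31.2 to 33.2%) in groups of 3 to 7 and 33.8% in groups of 8 or more. The last pair of intervals overlap, so dense groups and mid-size groups could not be told apart in this share. The TAL1-only share went the other way, from 9.41% (8.82 to 10.0%) of lone intervals through 7.95% and 6.03% (5.53 to 6.56%) to 3.71% in dense groups. GATA1-only intervals made up 65.9%, 63.9%, 61.8% and 62.5% in the same order. Among TAL1 intervals, 72.4% (70.8 to 74.0%) of the lone ones and 90.1% (86.8 to 92.8%) of those in dense groups were also GATA1 intervals, against 78.9% of all. Among GATA1 intervals the corresponding shares were 27.3% and 35.1% (32.2 to 38.1%), against 30.9% of all. GATA1 intervals are the larger list and so make up most of any dense group, and groups were made with all classes counted. When groups were made from GATA1 intervals alone, 1.80% of members were TAL1-only. That setting lets in only TAL1-only intervals inside the span of such a group, so a low share is partly built in. When neighbours were joined across at most 5 kb, 9 groups with 77 intervals remained, of which 29.9% were in both lists and 7.79% were TAL1-only, so the low TAL1-only share was not seen there.

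**Figure D1:**
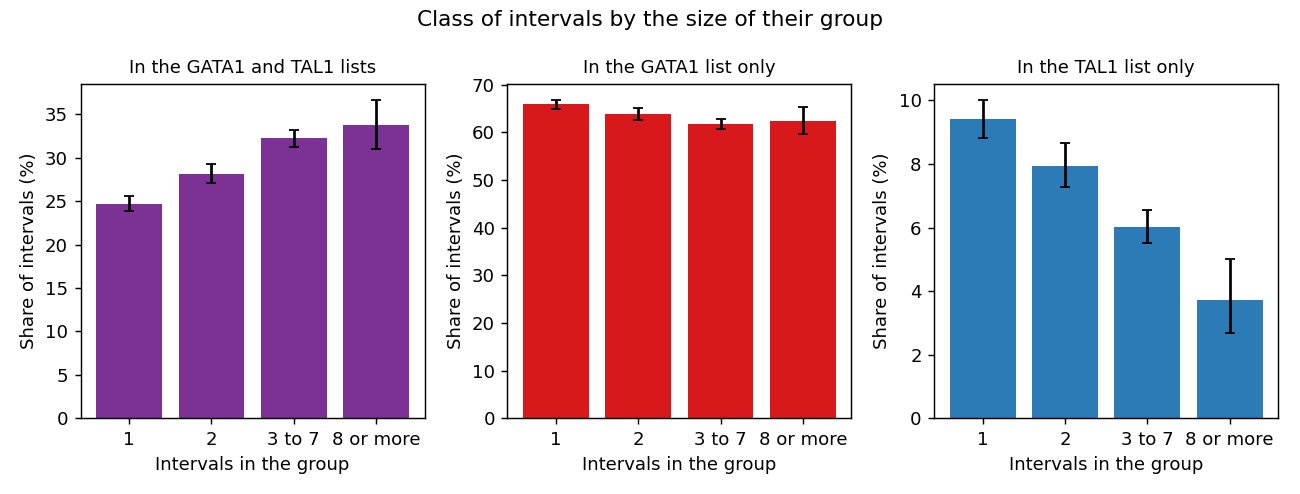
Share of intervals (%) in each class, one panel per class with its own vertical axis, by the number of intervals in their group. Bars are shares and lines exact 95% intervals over intervals. The share in both lists is 24.7% for lone intervals and 33.8% in groups of 8 or more, and the TAL1-only share 9.41% and 3.71%.

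On either side of the threshold the share in both lists was nearly the same. The TAL1-only share was lower just inside it, but the intervals overlap. The 62 groups of 7, just outside it, held 35.9% in both lists (31.4 to 40.7%), 58.1% GATA1-only and 5.99% TAL1-only (3.95 to 8.65%). The 40 groups of 8, just inside it, held 35.6% (30.4 to 41.1%), 61.6% and 2.81% (1.29 to 5.27%). Groups of 9 had 5.33% TAL1-only, so that share did not keep falling with size. Groups of 9 had 32.4% in both lists, groups of 10 or 11 had 33.3% and groups of 12 to 14 had 40.9%. The 10 groups of 15 to 24 had 27.03%, with 69.7% GATA1-only. Across the 108 groups the share in both lists had no clear rank relation with the number of intervals (Spearman rho = 0.004), with span (rho = -0.044) or with packing (rho = 0.057). With the median width of a group's intervals rho was 0.305. These groups come from the same libraries, and the values are descriptions only.

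Most dense groups were of moderate size. The numbers of groups with 8, 9, 10 and 11 intervals were 40, 25, 9 and 12, and 22 groups had 12 or more. The median span was 37.9 kb (interquartile range 29.2 to 48.8 kb), with 24 groups over 50 kb and 6 over 80 kb. All groups together spanned 4.48 Mb, of which listed intervals covered 0.336 Mb, or 7.51%. In the median group there were 2.53 intervals per 10 kb, and single groups had from 1.53 to 11.2. Neighbouring members were separated by a median of 3.34 kb, and 184 of the 998 gaps (18.4%) were at most 500 bp. In groups of 3 to 7 the median gap was 2.66 kb and 23.8% of gaps were at most 500 bp. Most neighbours in dense groups were therefore kilobases apart. With intervals within 500 bp counted as 1 site, the groups held a median of 8 sites (4 to 22), and 59 of the 108 still had 8 or more.

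**Figure D2:**
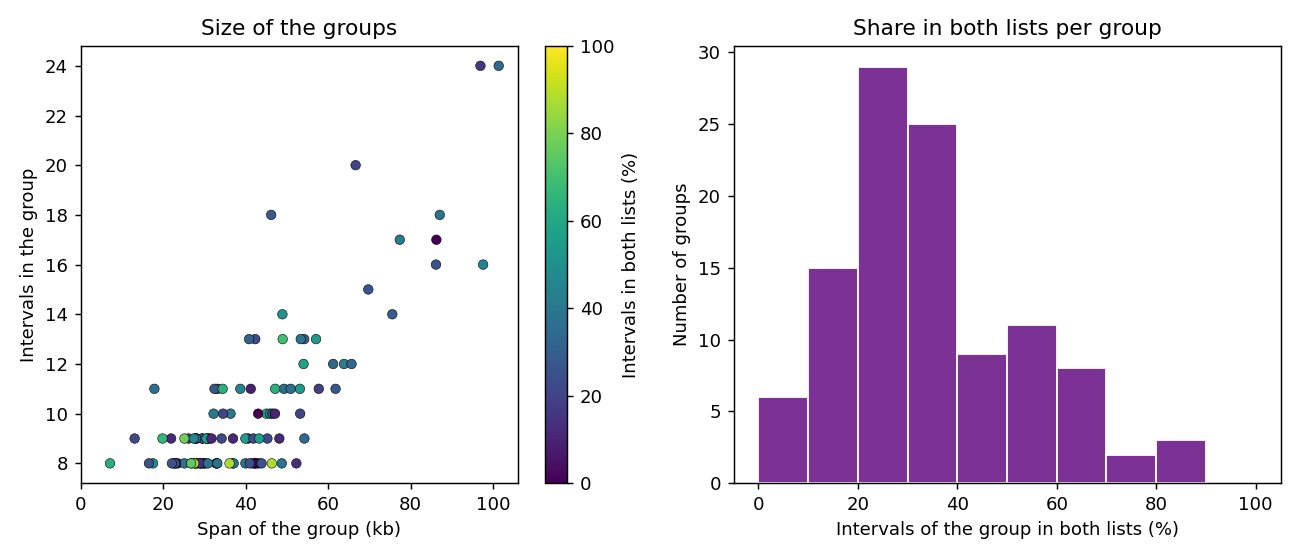
Left, each of the 108 groups by its span (kb) and its number of intervals, coloured by the percentage in both lists. Right, number of groups by that percentage, in steps of 10 points. The largest groups, with 24 intervals, span 96.9 and 101.3 kb, and the share in both lists runs from 0 to 87.5% with a median of 33.3%.

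Nearly all of the groups with most intervals mixed shared and GATA1-only intervals, scattered in some groups and gathered in others. Positions are those of the human build hg19, counted from 1. The group at 7q22.3 (chromosome 7, 106618868 to 106720204) was the longest, at 101.3 kb. Its 24 intervals were 8 shared and 16 GATA1-only, and shared intervals formed both of its ends. The group at 6p25.2 (chromosome 6, 2903070 to 2999980) also had 24 intervals, of which 4 were shared, 19 GATA1-only and 1 TAL1-only. Here the stretch from the leftmost to the rightmost TAL1 interval took up 58.8 kb of the 96.9 kb. These groups thus differed in TAL1 content at the same number of intervals, with 33.3% (15.6 to 55.3%) and 16.7% (4.73 to 37.4%) shared, but the intervals overlap widely.

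At 6p22.2 (chromosome 6, 26285405 to 26352058) 20 intervals spanned 66.7 kb. The TAL1 side of this group was gathered at its left end, where 3 shared intervals and the only TAL1-only one all began within 11.8 kb of the start. A run of 12 GATA1-only intervals followed, and then a single shared interval 51.2 kb from the start and 3 more GATA1-only ones. The group at 3p26.1 (chromosome 3, 5019199 to 5065383) was shorter and tighter, with 18 intervals in 46.2 kb, or 3.90 per 10 kb. It held 5 shared, 12 GATA1-only and 1 TAL1-only interval, with shared intervals at both ends. At 11p15.3 (chromosome 11, 12136173 to 12223230) the same number of intervals was spread over 87.1 kb, and 7 of them were shared. No run of a class was longer than 3 there, so both kinds alternated along the whole group.

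Of the next groups, 11q14.2 (chromosome 11, 85845640 to 85922999) had 17 intervals, of which 7 were shared. The rightmost shared one began 48.5 kb from the start, and 6 GATA1-only ones closed the group. The group at 6p22.1 (chromosome 6, 28677728 to 28763958) had 17 intervals too, but none was shared. It held 16 GATA1-only intervals, 15 of them in a row, and 1 TAL1-only interval 79.6 kb from its start. The groups at 3q27.3 (chromosome 3, 186588292 to 186674428) and 10q11.23 (chromosome 10, 52287255 to 52384817) each had 16 intervals, with 4 and 7 shared. The latter was the loosest of the largest groups, with 1.64 intervals per 10 kb. At 7q33 (chromosome 7, 137617681 to 137687405) 4 of 15 intervals were shared. Among these 10 largest groups the number of shared intervals thus ran from 0 to 8.

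The last of the 15 largest groups included the one richest in shared intervals. At 6p23 (chromosome 6, 15058954 to 15107930) 9 of 13 intervals were shared (69.2%, 38.6 to 90.9%), the highest number in any of the 108 groups, and 7 of them followed each other at its right end. At 18p11.31 (chromosome 18, 3617609 to 3666515) 7 of 14 were shared, and at 1q42.2 (chromosome 1, 233734570 to 233810120) 4 of 14. A second group at 6p22.1 (chromosome 6, 27740305 to 27781137) had 4 of 13 shared, and one at 22q11.21 (chromosome 22, 21978493 to 22020816) had 3 of 13.

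**Figure D3:**
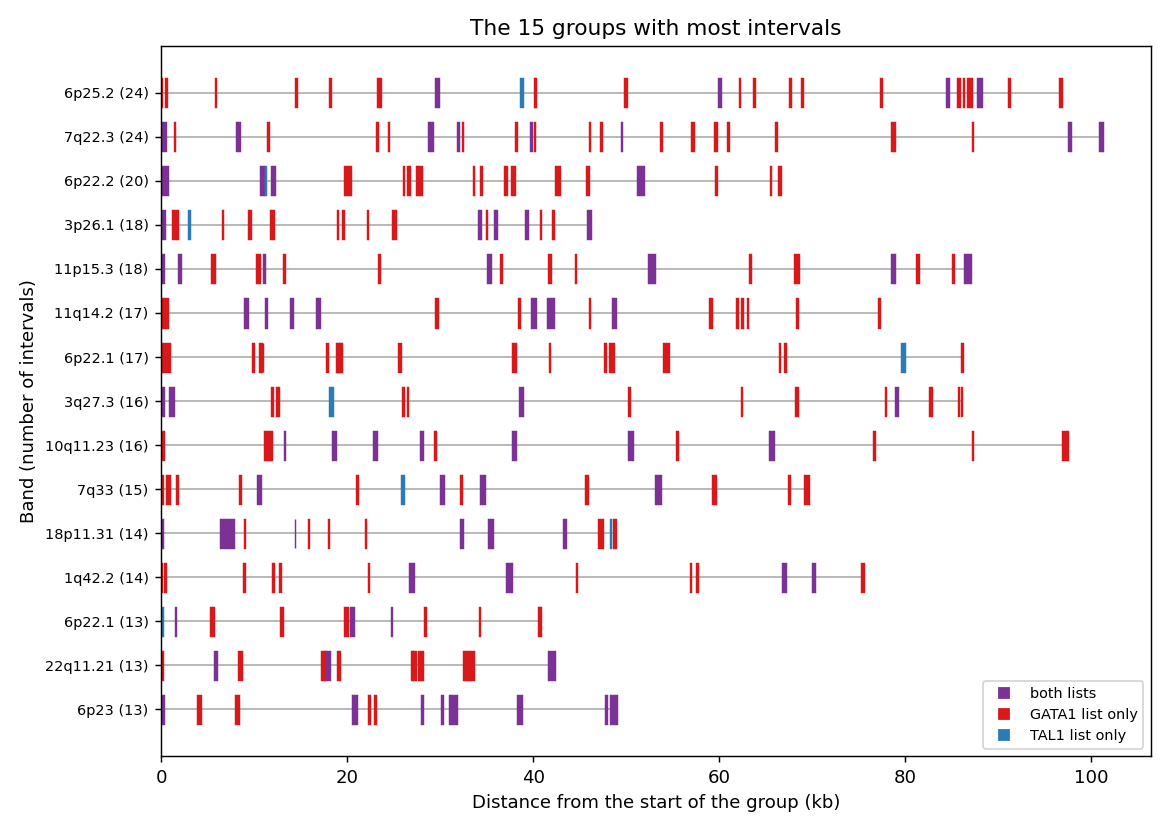
The 15 groups with most intervals, each on its own line and labelled by band and number of intervals, against the distance from the start of the group (kb). Each bar is 1 interval coloured by class and outlined so that the narrowest stay visible. The group at 6p22.1 with 17 intervals has no shared interval, and the one at 6p23 has 9 of 13.

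Single groups ranged from almost wholly shared to wholly GATA1. The median group had 3 shared intervals and a share of 33.3% (interquartile range 22.22 to 44.4%). GATA1-only was the most frequent class in 82 groups and the shared class in 20, with equal numbers in 6. Shared intervals made up more than 50% in 19 groups. The largest shares belonged to small groups. At 22q11.21 (chromosome 22, 19384189 to 19420281), 6q24.1 (chromosome 6, 139923715 to 139970056) and 8q24.13 (chromosome 8, 125640487 to 125667997), 7 of 8 intervals were shared (87.5%, 47.3 to 99.7% each). The only GATA1-only interval in these groups was narrow, at 109, 85 and 104 bp, and lay inside the group. At 19q13.33 (chromosome 19, 49370435 to 49395595) 7 of 9 were shared, 6 of them in a row, and at 9q34.13 (chromosome 9, 135853159 to 135879932) 6 of 8. With 8 or 9 intervals these shares are imprecise, and the groups were named because they were extreme.

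At the other end, 5 groups had no shared interval. At 17q21.32 (chromosome 17, 46590380 to 46633404) all 10 intervals were GATA1-only, at 11q21 (chromosome 11, 96040195 to 96071331) all 9, and at the third group of 6p22.2 (chromosome 6, 26554173 to 26596434) all 8. These 3 groups had no TAL1 interval at all. The other 2 were the 6p22.1 group of 17 described above and a group at 2p16.1 (chromosome 2, 55315073 to 55348038), whose 8 intervals ended with a TAL1-only one. The upper exact limits of these shares of 0 run from 19.5% for the group of 17 to 36.9% for those of 8, and the groups were picked for being lowest. No group was without a GATA1-only interval.

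TAL1-only members were few and scattered. No group had more than 2 of them. They were absent from 72 groups, single in 31 and present as a pair in 5. In 34 groups all 3 classes were present. Of the 41 TAL1-only members, 19 (46.3%) lay within 1 kb of a GATA1 interval of the same group, at a median of 1.20 kb. The median for the 506 TAL1-only intervals of mid-size groups was 2.04 kb. The order was the other way for the distance to the nearest shared interval, with a median of 3.37 kb in dense groups (28.2% of 39 within 1 kb) and 1.999 kb in mid-size groups (40.1% of 372). GATA1-only members of groups with any TAL1 interval lay a median of 6.96 kb from the nearest TAL1 interval, and 12.5% of these 664 were within 1 kb. GATA1-only members were thus mostly several kilobases from TAL1, while TAL1-only members were often close to GATA1, in groups where GATA1 intervals are by far the more numerous.

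Intervals of a class often followed each other along a group. The longest run of a class was of GATA1-only intervals in 76 groups and of shared intervals in 18, with a tie of these classes in 12. Runs of 5 or more GATA1-only intervals occurred in 40 groups, and runs of 5 or more shared intervals in 6. GATA1-only intervals made up 62.5% of members, so more and longer runs of them follow in part from that share. Of all neighbouring pairs, 58.6% were of the same class, against 58.1% in groups of 3 to 7. These values too follow in part from the class shares, and the value for a random order was not computed. In the 95 groups with at least 2 TAL1 intervals, the stretch from the leftmost to the rightmost of them took up a median of 71.9% of the span. It was under 50% of the span in 28 groups and at least 90% in 26. In the former, the rest of the group held GATA1 intervals alone. The ends of the groups did not stand out, with 32.9% shared (26.6 to 39.6%) among the 216 end intervals and 34.0% (30.9 to 37.3%) among the 890 inside.

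Neighbours were most alike at short range. For pairs within 500 bp (184 pairs), the right-hand interval was a TAL1 interval in 78.1% (66.0 to 87.5%) when the left-hand one was, and in 24.2% (16.8 to 32.8%) when it was not. From 500 to 2000 bp (212 pairs) the shares were 46.5% (35.7 to 57.6%) and 38.1% (29.6 to 47.2%), and their intervals overlap. From 2000 bp up to the joining distance (602 pairs) they were 42.3% (35.8 to 49.1%) and 30.3% (25.7 to 35.2%). In groups of 3 to 7 the same pairs of shares were 79.9% and 17.0%, 54.6% and 31.0%, and 40.4% and 35.1%. Intervals this close may be parts of 1 enriched stretch, which lists without summits cannot tell. Groups also differ in their TAL1 content, and this was not separated from distance.

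Members in both lists were wider than the others, as they are throughout the lists. The median width was 366 bp for shared members (interquartile range 254 to 495 bp), 230 bp for GATA1-only (143 to 348.5 bp) and 252 bp for TAL1-only members (164 to 328 bp). Members of all classes together had a median of 268.5 bp, lone intervals 325 bp. Lone intervals were wider in each class, at 404, 294 and 307 bp. Since wide intervals were more often shared, and members were narrower than lone intervals, the shares were also compared within classes of width. Up to 150 bp, 13.2% (9.18 to 18.3%) of 234 members and 5.29% (4.04 to 6.79%) of lone intervals were shared. From 150 to 300 bp the shares were 24.7% (20.5 to 29.3%) and 16.2% (14.9 to 17.6%), and from 300 to 600 bp 49.3% (44.4 to 54.2%) and 33.6% (32.2 to 35.1%). Over 600 bp they were 62.7% (50.01 to 74.2%) of 67 members and 34.6% (31.4 to 37.9%) of lone intervals. The share was thus higher among members than among lone intervals in each of the 4 width classes, with intervals that do not overlap. Mid-size groups had 14.4%, 24.5%, 45.1% and 55.0%, each within the interval of the members. Which steps set the widths of intervals common to both lists is unknown, and the shares by width rest on them.

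**Figure D4:**
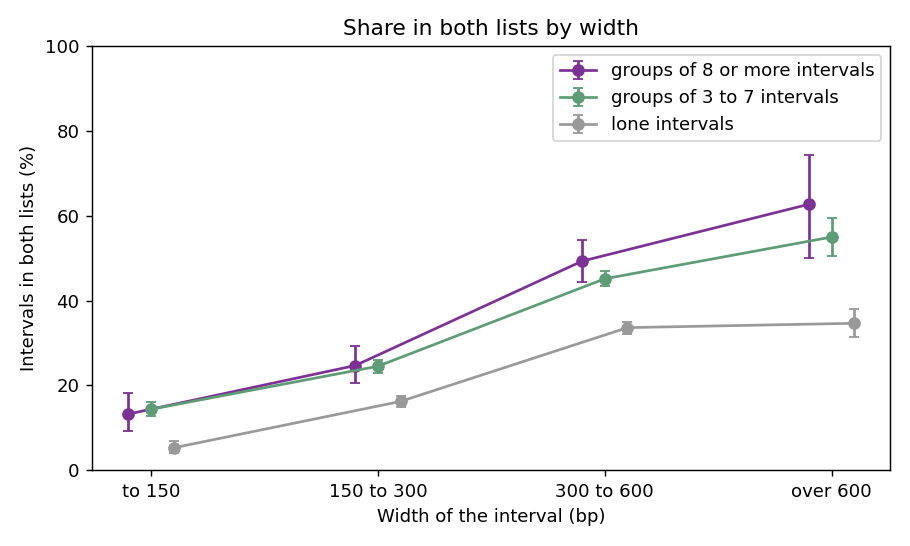
Share of intervals in both lists (%) by width class (bp), for groups of 8 or more, groups of 3 to 7 and lone intervals. Points are shares and bars exact 95% intervals over intervals. In the class of 300 to 600 bp, 49.3% of members and 33.6% of lone intervals are shared.

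The 4 widest members lay on 6p22. The widest of all, 1039 bp and in both lists, lay at 28302927 to 28303965 of chromosome 6, and the next, 974 bp and GATA1-only, opened the 6p22.1 group without shared intervals. The next, at 940 and 933 bp, were the left and right ends of the first group of 6p22.2 (chromosome 6, 26188583 to 26217570), and the left one was its only shared interval. At the narrow extreme, the group at 1q24.2 (chromosome 1, 167832061 to 167839184) was the shortest and most closely packed, with 8 intervals in 7.12 kb. It held 5 shared, 2 GATA1-only and 1 TAL1-only interval. None was wider than 288 bp, and they made only 4 sites when those within 500 bp were joined.

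Dense groups were spread unevenly over the chromosome arms. They occurred on 29 of 41 arms, and 54 of the 108 were on the 6 arms with at least 5 groups, which held 30.2% of all nuclear intervals. These arms were picked for their number of groups, so a larger share of groups than of intervals is partly built in. Arm 6p alone had 15 groups with 176 members, or 15.9% of members against 5.16% of all intervals. It had 2.56 groups per 10 Mb, and 13.8% of its intervals were members, against 4.49% overall. On 18p, 3 groups held 15.9% of the arm's intervals, on 11p 4 groups held 10.4% and on 10q 7 groups held 9.90%. By contrast 1p, with 9 groups, had 4.38% of its intervals in them. Of the remaining arms with at least 5 groups, 7q had 8 (7.95% of its intervals), 1q 8 (5.21%) and 6q 7 (7.31%). No dense group was found on 12 arms, among them 15q with 788 intervals, 16p with 410, 14q with 406 and both arms of X.

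**Figure D5:**
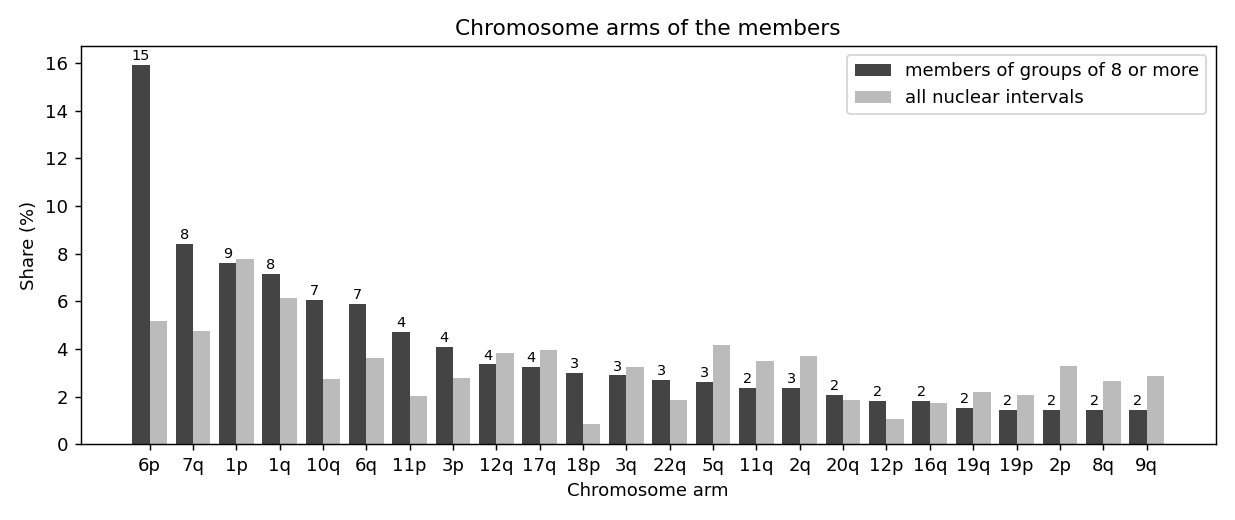
Share (%) of the 1106 members and of all nuclear intervals on each chromosome arm with at least 2 groups. Numbers above the dark bars are groups. Arm 6p has 15 groups and 15.9% of members, against 5.16% of all intervals.

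Shared intervals made up a lower percentage of members on 6p, with low shares in 6p22.1 and 6p22.2 and in some groups of other bands. On 6p 24.4% (18.3 to 31.5%) of members were shared, against 35.6% (32.5 to 38.8%) on all other arms. The intervals of 6p outside dense groups were much like its members, with 25.5% shared. The 6 groups in 6p22.1 and 6p22.2 held 74 members, of which 11 were shared (14.9%, 7.66 to 25.04%), 60 GATA1-only and 3 TAL1-only. The 9 groups elsewhere on 6p had 31.4% shared (22.5 to 41.3%), and without the 6p23 group 25.8% (17.1 to 36.2%). Single groups among these 9 ran from 10.0% at 6p21.33 (1 of 10) and 16.7% at 6p25.2 (4 of 24) to 69.2% at 6p23. Intervals of 6p22.1 and 6p22.2 outside dense groups had 15.9% shared (10.6 to 22.6% of 157), a share as low as that of the dense groups there. The bands and the group left out were picked after their values were seen. Among the other arms with at least 5 groups the shared percentage was 31.0% on 1p, 43.0% on 1q, 38.5% on 6q, 35.5% on 7q and 34.3% on 10q, with overlapping intervals.

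Some dense groups lay near each other. Among 90 pairs of successive groups on a chromosome, 2 were within 100 kb and 15 within 1 Mb, with a median distance of 6.64 Mb. The closest were at 10q22.1 (chromosome 10, 74003934 to 74036849 and 74050824 to 74081368), where 13.97 kb with no interval separated a group with 3 of 8 shared from one with 1 of 9. Next came 2 groups of 6p22.2, 67.8 kb apart with 3 intervals between them. A total of 5 bands held 3 groups each, namely 6p22.1, 6p22.2, 7q22.3, 10q22.1 and 22q11.21. Their shares of shared members were 15.8%, 13.9%, 32.5%, 24.0% and 43.3%. In 27 groups the next interval outside lay less than 15 kb away, and in 72 less than 25 kb away, so the ends of these groups depend on the joining distance.

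Staining bands of the chromosomes, which the choice of members did not use, gave a further description. Unstained (gneg) bands, generally rich in genes, held 61.6% (58.6 to 64.5%) of members, 59.6% of the other nuclear intervals and 42.4% of the length of these chromosomes. The darkest bands (gpos100) held 2.53% (1.69 to 3.64%) of members in 3 groups, 6.07% of the other intervals and 16.4% of the length. Bands of medium stain (gpos50) held 17.6% (15.4 to 20.01%) of members and 13.3% of the others. Of the 195 members in gpos50 bands, 38 were in the 3 groups of 6p22.1. Lighter bands (gpos25) held 12.0% of members and 11.7% of the others, and darker ones (gpos75) 6.24% and 8.68%. Members were shared in 36.3% (32.7 to 40.01%) of cases in unstained bands and 21.4% (8.30 to 41.0%) in the darkest, which hold only 28 of them.

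Several bands with dense groups are known for erythroid or other lineage genes, which are given here as background. These bands were chosen after the values were seen. They are only a selection of the bands with such genes, and others that hold dense groups are not given. No gene positions for hg19 were used, the bands are much longer than the groups, and no interval is assigned to a gene. Band 11p15.4 carries the beta-globin genes, and 1 of its 2 dense groups, at chromosome 11, 5245818 to 5309658, had 12 intervals in 63.8 kb. Of these 5 were shared, 4 of them together at the right end, and 7 were GATA1-only. The other group of 11p15.4 had 4 of 13 shared. Band 12q13.13 carries NFE2, which encodes an erythroid and megakaryocytic factor. Of its 2 dense groups, the one at chromosome 12, 54673386 to 54701206, had 6 of 9 shared, 5 of them in a row at the right end. The other had 4 of 11 shared. Band 9q34.13 carries GFI1B, a repressor needed for erythroid and megakaryocytic cells, and its group is among those with the highest shares above. Band 6q23.3 carries MYB, a factor of blood progenitors. Of its 2 dense groups, the one at chromosome 6, 135482655 to 135516829, had 2 of 9 shared and the other 3 of 11. Band 6p22.2 carries a large part of the replication-dependent histone genes and 17q21.32 the HOXB genes. Their groups had few shared intervals or none, as given above. Whether bands with erythroid genes differ from other bands was not tested, and the selection given here cannot show it.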

How the data were processed

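Each list deposited by the authors has 3 columns without header, holding only positions (chromosome, start, end). Trimmomatic, Bowtie2, MACS2, deepTools and hg19 are named without versions, roles or thresholds, per the submitters' processing notes, and the sources used here do not say whether peaks were called per library. The GATA1 list held 22769 intervals and the TAL1 list 8918, of which 4 mitochondrial ones were left out. No neighbours overlapped in part. Groups and classes were computed in Python 3.11.15 with numpy 2.4.6, pandas 2.3.3 and scipy 1.17.1, figures with matplotlib 3.10.9. The grouping was tested on simulated data. Bands came from circlize 0.4.16 and chromosome lengths from GenomeInfoDb 1.38.1 (hg19). An interval has the band of its midpoint, and a group's arm length leaves out centromeric bands and heterochromatin. The members and lists were chosen with earlier results of these data known. By rule, the text names the 15 groups with most intervals (ties by shorter span), the longest, shortest and most closely packed, the 5 with the highest and lowest shared percentage (ties by number), those without TAL1 or without GATA1-only intervals, and arms with at least 5 groups. The text also names groups outside this rule, such as the closest pair of groups and those in bands given as background. By plan, genes were to be named for a group only with gene positions for hg19. None were used, so the genes named by band depart from the plan. Alternatives changed joining distance, group size, width, site definition, the list used for grouping, arm 6p and the definition of shared.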

Additional observations from a re-analysis of the deposited data

How the results depend on the processing

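Of 72 values under 9 alternatives, 40 stayed within the 95% interval of the value reported (exact binomial for shares, by order statistics for medians) or, for counts, within 1.5 times it. The others follow, in the order groups, intervals and median span. Joining across 5 kb gave 9, 77 and 18.2 kb, across 25 kb 345, 3795 and 69.1 kb. Groups of 6 or more gave 312, 2392 and 27.4 kb, groups of 12 or more 22, 339 and 64.8 kb. Intervals within 500 bp joined to 1 site gave 59, 608 (sites) and 46.5 kb, intervals of at least 150 bp 50, 497 and 46.0 kb. Fewer or more intervals enter by construction. Median width moved to 244 bp at 5 kb, 286 bp at 25 kb, 336.5 bp for sites and 328 bp with the width minimum. The share in both lists was 29.9% at 5 kb, 39.0% with the width minimum and 43.0% when the other factor within 1 kb counted as shared. The GATA1-only share was 56.3% and 55.0% in those last settings. The TAL1-only share was 7.79% at 5 kb, 5.09% at 25 kb, 1.80% with groups from GATA1 intervals alone and 1.99% with the 1 kb definition. At 5 kb 100% of groups held a shared interval. The cause of the moved shares was not tested. No depth was known, so how many further intervals deeper libraries would add cannot be told.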
